A study of Oryctolagus cuniculus with 134 samples.

Results

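The aortic valve of rabbits fed a lard-enriched diet was compared with that of rabbits fed chow. The comparison holds the 14 libraries labelled aortic valve with the treatment Lard (7) or Control (7), out of 27 aortic valve libraries and 134 libraries of 5 tissues in all. All animals were male New Zealand White rabbits that were 12 weeks old when the 16-week protocol began, 1 aortic valve library came from each rabbit, and no group carried a genetic change. Control rabbits ate standard chow without vitamin D2. Lard rabbits ate chow with 5% lard and received vitamin D2 in drinking water for 15 days, at a daily dose of 25000 units scaled to body weight, so that lard and vitamin D2 cannot be told apart. The 13 remaining aortic valve libraries, from rabbits on 0.3% cholesterol with the same vitamin D2 (Cholesterol, 6) or with additional cardiac irradiation of 24 Gy in 3 fractions of 8 Gy after 8 weeks (Cholesterol+IR, 7), served to estimate the spread between libraries.

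The aortic valve closes the outflow of the left ventricle. Its leaflets are made of valve interstitial cells in layers of collagen, proteoglycan and elastin, covered by endothelium, and they are anchored to a root that borders on ventricular heart muscle. In calcific valve disease the interstitial cells can take on features of myofibroblasts and of bone-forming cells. Heart muscle cells are not part of the leaflet proper, and their contractile proteins (actin, myosin, troponin, the Z-disc proteins) and energy proteins (myoglobin, creatine kinase) are abundant enough that a small amount of adjoining muscle is visible in RNA of a valve.

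The deposited values were read counts per gene. Control libraries held 13978094 to 20806309 counts and Lard libraries 15020983 to 50577676, and the library with the most counts was Lard L232. Levels are given as CPM, counts scaled to the size of each library. The libraries carried the defining genes of valve interstitial cells: VIM, an intermediate filament of mesenchymal cells, lay between 6289 and 12053 CPM, DCN, a collagen-binding proteoglycan, between 366 and 3047, and TBX20, a transcription factor of the valve-forming endocardial cushions, between 252 and 526 over the 14 libraries. The endothelial gene PECAM1 spanned 4.63 to 344 CPM. Control L150, L166 and L261 stood apart together from the other 4 Control libraries, with DCN at 366 to 730 CPM against 1988 to 2598 and COL1A1, the main fibrillar collagen, at 5264 to 7289 against 933 to 2714. In bulk tissue, fewer cells of a type and less RNA per cell cannot be told apart.

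Heart muscle genes were lower in Lard, and they made up most of the genes that passed the test when edgeR was fitted to all aortic valve libraries. This majority is stated for that edgeR fit alone and not for DESeq2 or the model of all tissues. The heart muscle level of a library was taken as the mean log2 CPM of MB (myoglobin, the oxygen store of muscle), CKM (muscle creatine kinase) and ACTN2 (the alpha-actinin of the Z-disc). In the Control libraries this level was lowest at 3.08, had a median of 4.38 and was highest at 7.92, with a mean of 4.92 ± 1.77 (SD, n = 7). In the Lard libraries it was lowest at -0.04, had a median of 1.33 and was highest at 2.61, with a mean of 1.503 ± 0.96 (SD, n = 7). The groups did not overlap. The spread was wide within Control, where L240 (7.92), L277 (6.33) and L166 (5.57) were highest.

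**Figure D1:**
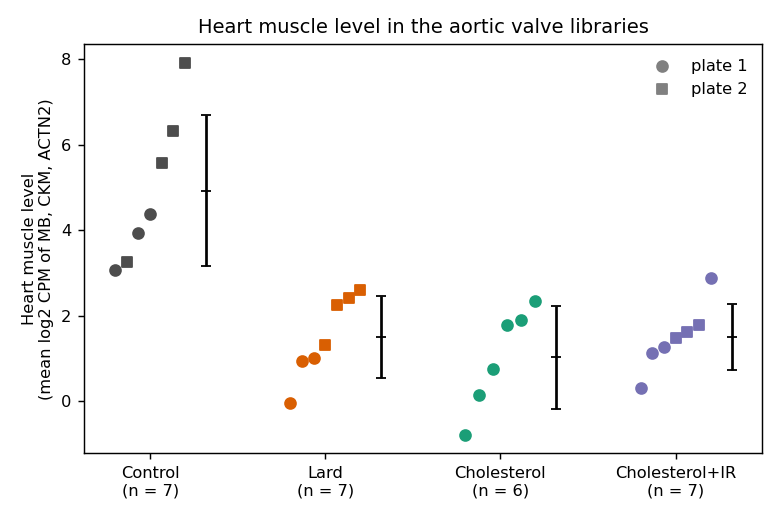
Heart muscle level (mean log2 CPM of MB, CKM and ACTN2) of each aortic valve library by treatment, as circles for plate 1 and squares for plate 2, with the mean and SD beside each group. The 7 Control libraries lie between 3.08 and 7.92, above the 7 Lard libraries (-0.04 to 2.61) and above all Cholesterol and Cholesterol+IR libraries.

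The separation was present on each of the 2 plates by which the count tables were divided. On plate 1, 3 Control libraries lay between 3.08 and 4.38 and 3 Lard libraries between -0.04 and 1.02. On plate 2, 4 Control libraries lay between 3.26 and 7.92 and 4 Lard libraries between 1.33 and 2.61. Both groups reached higher values on plate 2, and they did not overlap on either plate. The Cholesterol libraries spanned -0.78 to 2.36 and the Cholesterol+IR libraries 0.32 to 2.88, so that the 7 Control libraries stood above all 20 others. The identification numbers of the Control rabbits were all lower than those of the other treatments, so that number range and treatment cannot be told apart.

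MB was 3.54 CPM at the lowest, 12.0 at the median and 205 at the highest in Control, against 0.252, 1.17 and 4.14 in Lard. The groups overlapped slightly, and the log2 fold change was -4.75 ± 0.87 (SE, adjusted p = 0.025, edgeR's quasi-likelihood test). CKM ran from 6.52 over a median of 19.7 to 174.02 CPM in Control and from 0.119 over 2.35 to 6.09 in Lard, without overlap, with a log2 fold change of -4.09 ± 0.76 (adjusted p = 0.025, edgeR). ACTN2 ran from 14.8 over 37.6 to 396 CPM in Control and from 5.03 over 8.48 to 13.7 in Lard, again without overlap, with a log2 fold change of -3.55 ± 0.63 (adjusted p = 0.025, edgeR). All 3 genes had their highest level in Control L240. They were chosen with earlier results of these data known, and their change is therefore a description.

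Across all 15408 genes tested, 36 were called between Lard and Control in edgeR, which required both a fold change above 1.5 and an adjusted p below 0.05. Of these, 4 were higher in Lard (0.026% of the genes tested) and 32 were lower (0.208%). The median log2 fold change of all genes tested was -0.03. The genes called lower had log2 fold changes between -6.08 and -1.69 with a median of -4.25. Of the 32 genes, 27 had a symbol and 22 of these belonged to the lists of heart muscle genes. Each of the 32 had its highest level in Control L240. In 8 of them the Lard libraries all lay below the Control libraries, which was the case for 0.0714% of all genes tested.

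The calls rested on few libraries. Without Control L150, L166 and L261 together, 60 genes were called (2 higher, 58 lower), among them all 32 of the lower set and none of the 4 genes called higher before (adjusted p of 0.13 to 0.30, edgeR). Without Control L240 no gene was called (1829 genes at an unadjusted p under 0.05, edgeR), and the smallest adjusted p among the genes called before was 0.1005. The 31 genes of the lower set that were still tested then had smaller log2 fold changes, between -4.31 and -1.32 with a median of -3.21 against -4.25 before. The number of calls was also 0 without Lard L152, L173 or L232, 1 without Lard L190 or L269, 2 without Control L277, and 0 when only the Control and Lard libraries entered the model (1233 genes at an unadjusted p under 0.05). DESeq2 called 118 genes on the same 27 libraries (22 higher, 96 lower) and 101 genes on the 14 Control and Lard libraries alone (12 higher, 89 lower), and all 36 genes called by edgeR were among both sets. The balance of directions also depended on the model, as a single edgeR model of all tissues called more genes higher than lower in Lard.

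Genes of the sarcomere, the contractile unit of striated muscle, were the list with the most members in the lower set. Among 32 tested genes of the heart sarcomere list, 13 were called lower and none higher, and the median log2 fold change was -3.84. MYBPC3, a myosin-binding protein of the thick filament, ran from 3.99 over a median of 17.6 to 286 CPM in Control and from 0.0477 over 1.89 to 4.46 in Lard, with a log2 fold change of -4.94 ± 0.92 (adjusted p = 0.025, edgeR). ANKRD1, an ankyrin repeat protein induced by stretch of muscle, ran from 2.53 over 29.3 to 586 CPM in Control and from 0.0955 over 2.198 to 6.73 in Lard, with a log2 fold change of -5.66 ± 1.06 (adjusted p = 0.025, edgeR). In both genes the Lard libraries lay at the bottom of the Control range or below it. MYLK3, the cardiac myosin light chain kinase, changed least among the genes called lower, from a Control range of 7.80 to 34.8 CPM (median 9.11) to a Lard range of 2.77 to 8.54 (median 4.42), a log2 fold change of -1.69 ± 0.32 (adjusted p = 0.025, edgeR).

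Further sarcomere genes called lower encode thin filament and Z-disc proteins. ACTA1, an actin of striated muscle, fell from a Control median of 22.4 CPM (1.91 to 495) to a Lard median of 1.39 (0.561 to 5.50), and MYPN, which ties actin to the Z-disc, from 1.20 (0.674 to 28.3) to 0.204 (0 to 0.822). TNNC1, the calcium sensor of troponin, fell by 3.83 on the log2 scale, MYL3, a myosin light chain of the ventricle, by 4.45, LDB3, a Z-disc protein, by 3.84, and CSRP3, a LIM protein of the Z-disc, by 4.74. Lard and Control ranges overlapped for TNNC1, MYL3 and LDB3 and did not overlap for CSRP3. MYOM2 of the M-band (log2 fold change -4.16), XIRP1 (-3.86), an actin-binding protein of cell contacts, and TRIM55 (-5.28), a ubiquitin ligase of the sarcomere, were also called lower, as was HSPB7 (-3.60), a small heat shock protein of heart and muscle.

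The heart muscle genes MYH7 and MYL2 had changes of similar size without passing the threshold in edgeR. MYH7, the slow myosin heavy chain, ran from 116 over a median of 633 to 10351 CPM in Control and from 6.90 over 50.6 to 193.7 in Lard, with a log2 fold change of -5.05 ± 1.14 (adjusted p = 0.060, edgeR). MYL2, the regulatory light chain of the ventricle, ran from 10.6 over 58.8 to 974 CPM in Control and from 0.668 over 5.08 to 19.7 in Lard (log2 fold change -4.92 ± 1.13, adjusted p = 0.065). DESeq2 called both, with adjusted p-values of 3.6e-05 and 0.00013. Both spread widely among the Control libraries, overlapped between the groups and had reads in every Lard library.

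Genes of muscle energy supply and calcium handling were the next group. Of 27 tested genes, 6 were called lower and none higher, and the median log2 fold change was -1.14. PGAM2, the muscle form of a glycolytic mutase, ran from 1.86 over a median of 3.46 to 34.0 CPM in Control and from 0.191 over 0.942 to 1.58 in Lard, without overlap (log2 fold change -3.38 ± 0.66, adjusted p = 0.025, edgeR). ENO3, muscle enolase, had a log2 fold change of -2.23 ± 0.44, and PYGM, which releases glucose from muscle glycogen, of -2.91 ± 0.59. CKMT2, the mitochondrial creatine kinase, fell by 4.80 on the log2 scale without overlap of the groups. RYR2, the calcium release channel of the heart, fell by 3.55, from a Control median of 22.03 CPM to a Lard median of 7.14, and SRL, a calcium-binding protein of the sarcoplasmic reticulum, by 3.94. CASQ2, the calcium store protein of the same compartment, had a log2 fold change of -4.42 ± 0.99 and missed the threshold in edgeR (adjusted p = 0.053), whereas DESeq2 called it (adjusted p = 0.0003).

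Ventricular and atrial genes were listed apart. Of 8 tested genes of the ventricular list, 1 was called lower (MYL3) and the median log2 fold change was -1.06. None of the 7 tested genes of the atrial list was called and their median was -0.24. NPPA, the atrial natriuretic peptide, stayed between 0 and 6.4003 CPM in Control and between 0 and 6.22 in Lard, with a log2 fold change of -0.10 ± 1.298 (-1.67 on plate 1 and 1.16 on plate 2). TBX5, a transcription factor of the heart, had the smallest p of the atrial list, with a Control median of 2.31 CPM, a Lard median of 0.510 and a log2 fold change of -1.69 ± 0.59 (adjusted p = 0.37). ACTN3, the alpha-actinin of fast skeletal fibres and the single tested gene of the skeletal muscle list, had a log2 fold change of -0.06 ± 0.51 (-0.80 on plate 1 and 0.33 on plate 2). MYL7 and TNNT2 had no row under these symbols.

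Of the 27 genes called lower with a symbol, 5 were outside the heart muscle lists. PTP4A3, a tyrosine phosphatase, had the smallest p-value of all genes tested, with 1.22 over a median of 5.26 to 46.2 CPM in Control and 0.223 over 0.315 to 1.33 in Lard (log2 fold change -4.35 ± 0.71, adjusted p = 0.025, edgeR). RGS6, a regulator of G protein signaling, ran from 0.629 over 1.17 to 2.96 CPM in Control and from 0 over 0.154 to 0.306 in Lard, without overlap (log2 fold change -3.25 ± 0.62, adjusted p = 0.025, edgeR). RGS6 was the gene of the lower set with the smallest Control maximum. NRAP, an actin-anchoring protein of striated muscle, fell by 5.31 on the log2 scale, FBXO40, a muscle F-box protein, by 5.44, and MLIP, a lamin-interacting protein of muscle, by 3.56. Of the 5 genes without a symbol in the tables, ENSOCUG00000024537 ran from 6.05 to 477 CPM in Control and from 1.002 to 12.5 in Lard, and ENSOCUG00000035152 from 3.42 to 121 and from 0.764 to 6.94.

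**Figure D2:**
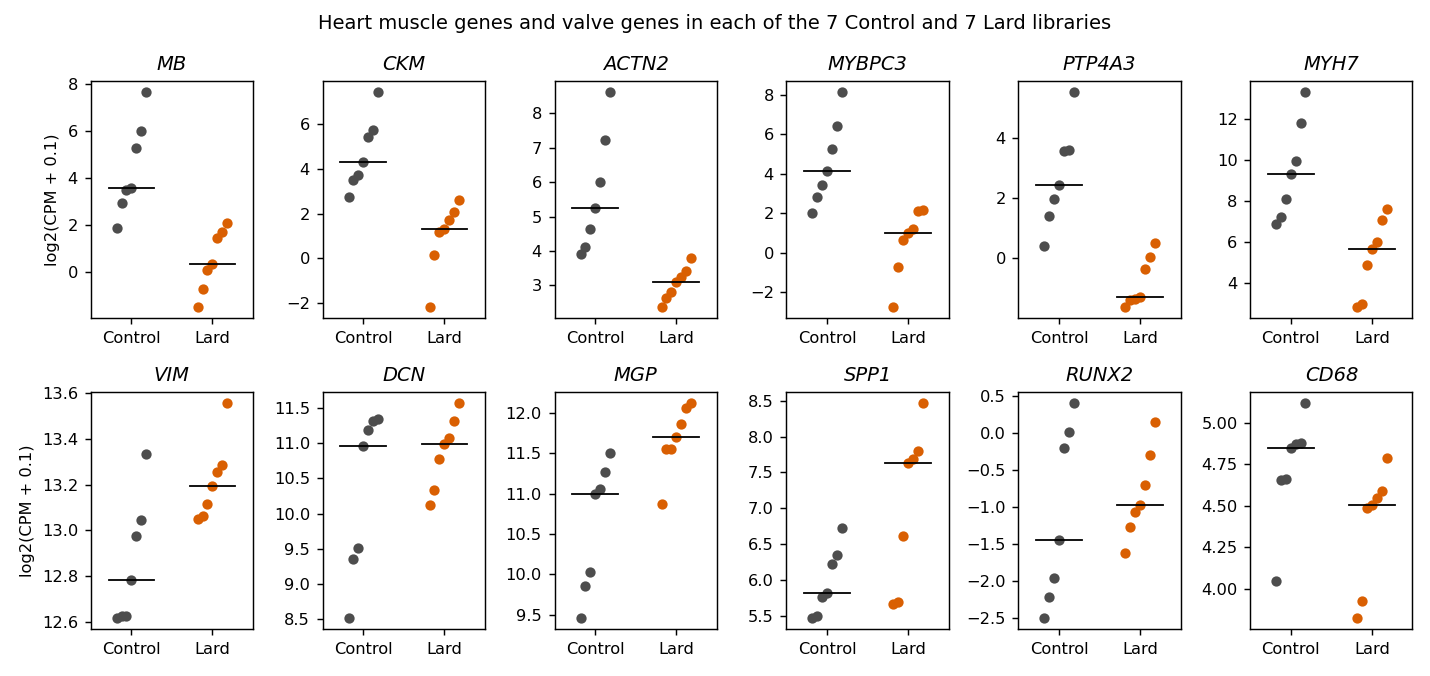
Level of 12 genes in each of the 7 Control and 7 Lard aortic valve libraries on the log2(CPM + 0.1) scale, each panel with its own axis, with a bar at the median. The heart muscle genes of the upper row, and PTP4A3, which is in no heart muscle list, sit lower in Lard with little or no overlap, whereas VIM, DCN, MGP, SPP1, RUNX2 and CD68 in the lower row overlap between the groups.

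Called genes were then set against the heart muscle level of the libraries. With the diet means removed, so that the difference between diets did not enter, the 29 genes called lower other than MB, CKM and ACTN2 had Pearson correlations with the heart muscle level between 0.64 and 0.97 over the 14 Control and Lard libraries (median 0.90). The median over all tested genes was 0.02, and 0.396% of them reached 0.8, against 25 of these 29. These 29 genes were called from the same libraries, and each had its highest level in Control L240. That library also had the highest heart muscle level, so that a high correlation here was partly set by the selection. In 26 mitral valve libraries, with treatment means removed, the same 29 genes had correlations between 0.77 and 0.97 with the heart muscle level of that valve (median 0.86), and 28 reached 0.8, against 0.558% of all genes tested. The planned measure used the 13 Cholesterol and Cholesterol+IR libraries of the aortic valve, which lie outside the comparison of Lard with Control. In these libraries, where the heart muscle level was low throughout, the range was 0.03 to 0.94 and the median 0.70. There 5 of the 29 reached 0.8 and 6 were under 0.5. RGS6 was lowest in the first set (0.64) and in the mitral valve (0.77), and PTP4A3 had 0.92 and 0.94. The genes of 1 library share its dissection and depth, and these correlations are descriptions.

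The 4 genes called higher did not follow the heart muscle level. Their correlations with it were between -0.29 and 0.33 within diets and between -0.31 and 0.02 in the mitral valve.

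**Figure D3:**
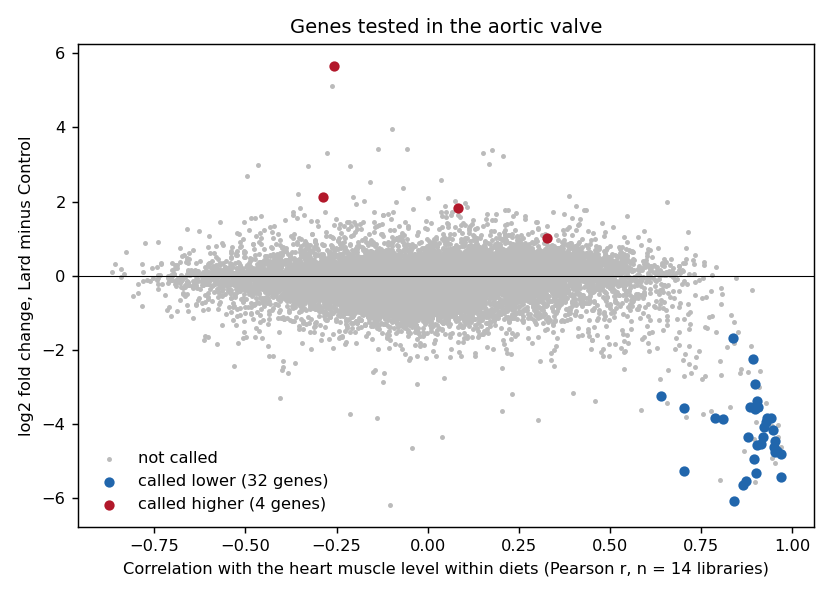
Log2 fold change between Lard and Control (y) against the Pearson correlation with the heart muscle level over 14 libraries with diet means removed (x) for the genes tested in the aortic valve, called genes in colour. The 32 genes called lower gather at the right, at correlations of 0.64 and above, and the 4 called higher lie between -0.29 and 0.33. MB, CKM and ACTN2 are among the 32 and define the level, so that their place at the right is fixed by construction.

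When the heart muscle level was added to the model as a covariate, no gene was called among 15405 (0% called, smallest adjusted p = 0.90, edgeR), and 639 genes had an unadjusted p under 0.05. DESeq2 with the same covariate also called 0 genes, with 1049 at an unadjusted p under 0.05. Without the covariate, 1695 genes had an unadjusted p under 0.05 in edgeR. The covariate did not overlap between Control and Lard, so that this model had little to separate diet from muscle with, and an absent call in it does not show that a gene was unchanged. The log2 fold change of MYBPC3 moved from -4.94 to -0.01, of PTP4A3 from -4.35 to -0.86 and of RGS6 from -3.25 to -1.62. Among the genes called higher, ENSOCUG00000025069 moved from 1.02 to 1.19 and ENSOCUG00000008012 from 1.82 to 2.06, whereas TNFSF8 moved from 5.66 to 3.63 and the remaining gene from 2.13 to 1.72. Of the 32 genes called lower, 20 had a positive and 12 a negative log2 fold change with the covariate (-1.62 to 0.86, median 0.16). These 32 include MB (0.156), CKM (-0.163) and ACTN2 (0.137), which make up the covariate, so that their values near 0 were set in advance. When the level was instead centred within each treatment, so that it removed the spread of muscle within groups and left the difference between them, 52 genes were called (4 higher and 48 lower), and 35 of the 36 were among them.

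Of the 4 genes called higher in Lard, TNFSF8 had a symbol. TNFSF8 encodes CD30 ligand, a cytokine of the tumor necrosis factor family that activated lymphocytes carry. It had 1 read in the 7 Control libraries together, 148 reads in Lard L232 and 35 in the other Lard libraries, a ratio per library size of 138 with an exact 95% counting interval of 24.4 to 5464. The level was 2.93 CPM in L232, and the median of the Lard libraries was 0.430 CPM. Without L232 the ratio was 38.4 (6.46 to 1561). Reads were present in 6 of 7 Lard libraries and 1 of 7 Control libraries. The fitted change passed the test (adjusted p = 0.036, edgeR), and it passed in 1 of the 14 fits that left out 1 library and not with the plate as a term (adjusted p = 0.053). When only the Control and Lard libraries entered the model, TNFSF8 fell under the filter on low counts and was not tested. ENSOCUG00000025069 ran from 3.38 over a median of 4.52 to 7.21 CPM in Control and from 6.82 over 10.7 to 13.8 in Lard, with a log2 fold change of 1.02 ± 0.19 (adjusted p = 0.025, edgeR). Its groups overlapped in the range from 6.82 to 7.21 CPM, and it was called in 9 of the 14 fits that left out 1 library. ENSOCUG00000008012 ran from 3.69 over 5.71 to 10.7 CPM in Control and from 9.24 over 13.7 to 55.7 in Lard (log2 fold change 1.82 ± 0.37, adjusted p = 0.026, edgeR). Its log2 fold change was 0.46 on plate 1 and 2.64 on plate 2, the call was lost with the plate as a term (adjusted p = 0.058), and it was called in 3 of the 14 fits that left out 1 library. ENSOCUG00000021929 ran from 0.337 over 0.608 to 1.35 CPM in Control and from 0.565 over 3.16 to 6.76 in Lard, with overlap (log2 fold change 2.13 ± 0.44, adjusted p = 0.032, edgeR), and it was also called in 3 of these 14 fits. The tables gave no symbol for the 3 other genes called higher.

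Genes of the valve interstitial cells were not called by edgeR or DESeq2. Of 23 tested genes of the valve interstitial cell list, 15 had a positive and 8 a negative fold change, none was called, and the median log2 fold change was 0.15. VIM had the smallest p, with 6289 over a median of 7046 to 10305 CPM in Control and 8469 over 9359 to 12053 in Lard (log2 fold change 0.34 ± 0.12, adjusted p = 0.39, edgeR). POSTN, a matrix protein secreted by activated fibroblasts, had a Control median of 3322 and a Lard median of 5808 CPM (log2 fold change 0.64 ± 0.28, adjusted p = 0.44). LUM, a collagen-binding proteoglycan, had a log2 fold change of 1.003 ± 0.49, and DCN of 0.32 ± 0.39. COL1A1 ran from 933 over 2714 to 7289 CPM in Control and from 870 over 1735 to 6826 in Lard, with a log2 fold change of -0.34 ± 0.59. TBX20 (-0.41 ± 0.22) and SOX9 (-0.53 ± 0.32), transcription factors of valve development, were not called either. The groups overlapped for all of these genes. The direction turned between plates for DCN (0.68 on plate 1, -0.01 on plate 2) and COL1A1 (-1.44 and 0.19). Control L150, L166 and L261 held the lowest LUM (62.0 to 115 CPM, against 409 to 763 in the other Control libraries) and the highest SOX9 (304 to 376, against 113 to 168.5). Without these 3 libraries the log2 fold changes were 0.39 for LUM, -0.23 for DCN, 0.57 for COL1A1 and 0.0997 for SOX9, so that DCN, COL1A1 and SOX9 changed sign, and the adjusted p of each was 1 (edgeR). The 3 libraries were picked for their levels of such genes, and these values are a description.

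Matrix, contractile and endothelial lists gave no calls in edgeR, and DESeq2 called CASQ2, DES and ROBO4 among them, all lower. Outside these lists, DESeq2 called MMP12, a matrix metalloproteinase, higher in Lard (adjusted p = 0.0014). MMP12 missed the threshold in edgeR (log2 fold change 5.11 ± 1.18, adjusted p = 0.068), and its medians were 0 CPM in Control and 0.251 in Lard. Of 23 tested genes of matrix remodelling, 3 had an unadjusted p under 0.05 and all of these were higher, and the median log2 fold change was 0.17. FN1, fibronectin, ran from 3483 over 7179 to 10127 CPM in Control and from 8098 over 10242 to 15078 in Lard (log2 fold change 0.57 ± 0.21, adjusted p = 0.42, edgeR). Its 3 lowest Control values were those of L150, L166 and L261 (3483 to 5174 CPM), and without them the log2 fold change was 0.24. ACTA2, the actin of smooth muscle and myofibroblasts, had Control and Lard medians of 201.5 and 231.6 CPM (log2 fold change 0.36 ± 0.20), and MYH11, smooth muscle myosin, of 196.6 and 91.0 with a Lard maximum of 1293 in L543 (log2 fold change -0.19 ± 0.59). Without L543 the log2 fold change of MYH11 was -1.71 (adjusted p = 0.080, edgeR). In the smooth muscle list the gene with the smallest p was CASQ2, which is also a heart muscle gene. DES, an intermediate filament of muscle cells, had a log2 fold change of -2.61 ± 0.62 (adjusted p = 0.085 in edgeR and 0.00097 in DESeq2), with a correlation of 0.86 with the heart muscle level within diets, and is named here because DESeq2 called it. Of 13 tested endothelial genes, 11 were negative and none was called. ROBO4, a receptor of endothelial cells, had a log2 fold change of -1.02 ± 0.29 (adjusted p = 0.22, edgeR, and 0.049 in DESeq2), PECAM1 of -0.47 ± 0.69 (0.06 on plate 1, -0.76 on plate 2) and CDH5, the cadherin of endothelial junctions, of -0.64 ± 0.62.

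**Figure D4:**
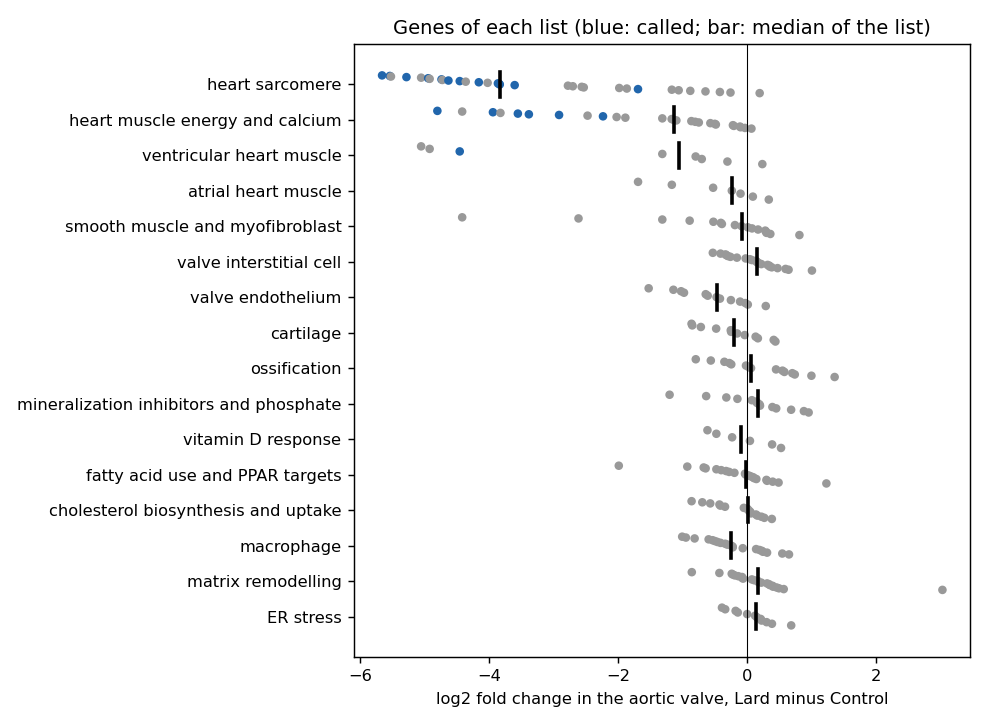
Log2 fold change between Lard and Control in the aortic valve (x) for the tested genes of 16 lists, 1 point per gene, called genes in blue, with a bar at the median of each list. The heart sarcomere list (median -3.84) lies far to the left, and the energy and calcium list (-1.14) and the ventricular list (-1.06) less so. The valve endothelium list has a median of -0.47, with 11 of 13 genes negative. The lists of valve interstitial cells, mineralization and lipid handling lie around 0.

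Genes of mineralization were examined because the Lard protocol includes vitamin D2. None of 12 tested cartilage genes was called, with a median log2 fold change of -0.20 and COL11A2 as the gene of smallest p (-0.86 ± 0.58, adjusted p = 0.46, edgeR). Of 15 tested ossification genes, none was called and the median log2 fold change was 0.06. SPP1, osteopontin, a secreted protein that binds mineral, had the smallest p of the list, with 44.4 over a median of 56.4 to 106 CPM in Control and 50.98 over 198.5 to 355 in Lard. Lard L152, L232, L248 and L269 stood above the Control range and the others within it, and the log2 fold change was 1.35 ± 0.38 (adjusted p = 0.22 in edgeR and 0.048 in DESeq2). RUNX2, the master transcription factor of bone-forming cells, was between 0.076 and 1.24 CPM in Control and between 0.223 and 1.01 in Lard (log2 fold change 0.02 ± 0.54). ALPL, the phosphatase that prepares mineral growth, had a log2 fold change of -0.80 ± 0.56, BGLAP, osteocalcin, of 0.70 ± 0.47, and IBSP, bone sialoprotein, was at a median of 0 CPM in both groups. SP7, a later transcription factor of bone cells, had at most 3 counts in a Control and 2 in a Lard library and was under the filter on low counts. The direction turned between plates for ALPL (-1.93 on plate 1, 0.12 on plate 2), for COL11A2 (-2.84 and 0.12), for RUNX2 (-0.05 and 0.14) and for IBSP (-0.17 and 4.02).

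Inhibitors of mineralization and the vitamin D pathway were likewise without calls. MGP, matrix Gla protein, which inhibits calcification of soft tissue, ran from 704 over a median of 2049 to 2909 CPM in Control and from 1867 over 3327 to 4474 in Lard, with a log2 fold change of 0.95 ± 0.32 (adjusted p = 0.35 in edgeR and 0.14 in DESeq2). Control L150, L166 and L261 lay at 704 to 1043 CPM, below the other Control libraries and every Lard library, and without them the log2 fold change of MGP was 0.51. Among 14 tested genes of this list 10 were positive, with a median of 0.17. VDR, the vitamin D receptor, had medians of 3.19 and 1.70 CPM (log2 fold change -0.62 ± 0.45). CYP24A1, the vitamin D-degrading enzyme that the receptor induces, had at most 9 counts in a Control and 27 in a Lard library, reached 0.433 and 0.534 CPM and was under the filter. Of 6 tested genes of the vitamin D list 3 were positive, with a median of -0.10. CYP27A1, which hydroxylates vitamin D and sterols, had a log2 fold change of -0.48 ± 0.21 (adjusted p = 0.44).

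Genes of fatty acid use, which respond to fat in the diet in other tissues, showed no common direction. Of 21 tested genes, 10 were positive and 11 negative, and the median log2 fold change was -0.02. CD36, a fatty acid transporter, ran from 0.424 over 2.65 to 11.2 CPM in Control and from 0.112 over 0.925 to 3.11 in Lard (log2 fold change -1.99 ± 0.59, adjusted p = 0.28 in edgeR and 0.032 in DESeq2). LPL, which frees fatty acids from circulating triglyceride and is made by fat and muscle cells, ran from 6.79 over 24.2 to 81.8 CPM in Control and from 2.60 over 7.83 to 17.9 in Lard (-2.05 ± 0.57, adjusted p = 0.22 in edgeR and 0.020 in DESeq2). The fold changes of both were smaller with the heart muscle covariate (-1.03 ± 0.83 and -0.75 ± 0.86), and their correlations with the heart muscle level within diets were 0.48 and 0.47. PDK4, a switch from glucose to fat use, had a log2 fold change of 0.09 ± 0.43, ANGPTL4, an inhibitor of lipoprotein lipase, of -0.48 ± 0.50, and PLIN2, which coats lipid droplets, of 0.14 ± 0.22. The direction turned between plates for ANGPTL4 (-1.94 on plate 1, 0.25 on plate 2), PDK4 (0.31 and -0.09) and PLIN2 (0.38 and -0.03). Of 6 tested fat cell genes all were negative, with LPL the one of smallest p, and the summed level of the list was 19.8 to 132 CPM in Control and 18.9 to 30.9 in Lard. The part of fat tissue in these values was not tested.

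Sterol genes were called by neither tool. Of 17 tested genes of cholesterol synthesis and uptake none was called, and the log2 fold changes ran from -0.86 to 0.38 with a median of 0.02. MVK, mevalonate kinase, had the smallest p (-0.57 ± 0.33, adjusted p = 0.44, edgeR). SQLE, squalene epoxidase, had medians of 23.3 and 31.96 CPM (log2 fold change 0.14 ± 0.26). ABCA1, which exports cholesterol, had -0.08 ± 0.25. The direction turned between plates for SQLE (-0.12 on plate 1, 0.46 on plate 2) and ABCA1 (0.54 and -0.53). LPCAT3, a phospholipid-remodelling enzyme and target of the sterol receptor LXR, had 0.79 ± 0.23 (adjusted p = 0.25, edgeR), in a list of 5 tested genes with a median of -0.08. In the Cholesterol libraries, compared with the same Control libraries, the log2 fold change of ABCA1 was 3.91. CPT1A and SCD had no row under these symbols.

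Immune cell genes were not called by edgeR, TNFSF8 being outside these lists, and DESeq2 called CXCL8 among them. Of 21 tested macrophage genes, 14 were negative and the median was -0.25. C1QC, a complement component that macrophages make, had medians of 57.9 and 38.9 CPM (log2 fold change -0.95 ± 0.33, adjusted p = 0.37, edgeR), CD163, a scavenger receptor, of 52.3 and 13.3 (-1.01 ± 0.50), CD68 of 28.7 and 22.6 (-0.34 ± 0.22) and CD14 of 7.07 and 4.98 (-0.46 ± 0.33). For CD163 the Lard maximum was 72.4 CPM in L232, and the log2 fold change was -1.61 without this library (adjusted p = 0.25, edgeR), -0.18 on plate 1 and -1.60 on plate 2. For CD14 it was 0.04 on plate 1 and -0.73 on plate 2. The 11 tested cytokine genes had a median of 0.40 and the 7 tested neutrophil genes of 0.34. Among cytokines, CXCL8, which attracts neutrophils, was at most 4.92 CPM in a library and had a log2 fold change of 2.01 ± 0.61 (adjusted p = 0.28 in edgeR and 0.0496 in DESeq2). LTF, lactoferrin of neutrophil granules, had 1.98 ± 0.61, at levels up to 5.55 CPM, and S100A8 was at most 0.816 CPM (-0.53 on plate 1, 0.69 on plate 2). Lists of lymphocytes, MHC class II, red blood cells, nerve, cell division, immediate early genes, the respiratory chain, lipogenesis, endoplasmic reticulum stress, oxidative stress and Wnt, Notch and TGF-beta signaling had 0 calls in edgeR and in DESeq2. Their medians lay between -0.26 and 0.36, and genes with the smallest p in these lists (MZB1, HLA-DRA, EPB42, PLK1, MYC, NDUFV2, ACACB, HSP90B1, HMOX1 and SMAD7) had adjusted p-values between 0.36 and 0.61 in edgeR. Among these, the log2 fold changes turned between plates for MZB1 (1.06 on plate 1, -1.94 on plate 2) and EPB42 (-4.34 and 1.21).

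The heart muscle difference was set beside the other tissues of the same rabbits. In the mitral valve the heart muscle level was 2.90 to 5.93 in 6 Control libraries and 1.15 to 5.80 in 7 Lard libraries, in the tricuspid valve 4.65 to 9.99 and 2.43 to 9.67, in the pulmonary valve 1.23 to 6.76 and -0.18 to 6.21, and in the aorta 1.47 to 3.09 and 1.18 to 2.86. The groups overlapped in each of these tissues. The aortic level includes CKM at a Control median of 33.4 CPM, with MB at 0.617, and need not follow heart muscle there. All 32 genes called lower in the aortic valve had negative log2 fold changes in the mitral valve too, between -2.07 and -0.11 with a median of -0.89, and none passed the adjusted test there. A test of the difference between both valves in the Lard response gave no gene at an adjusted p under 0.05 (0% of 16166 genes, smallest adjusted p = 0.12, edgeR; 874 genes at an unadjusted p under 0.05), nor did limma-voom with the rabbit as a block (3213 genes at an unadjusted p under 0.05). The muscle difference was therefore not shown to be particular to the aortic valve among the left heart valves.

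Against the aorta, the Lard response of the aortic valve differed in 376 of 16125 genes (2.33%, adjusted p under 0.05, edgeR). In 352 of these the fold change was smaller in the valve than in the aorta and in 24 it was larger. With limma-voom and the rabbit as a block, 16 genes passed, and all 16 were among the 376. All aorta Control and Lard libraries were on plate 2, whereas 3 of 7 valve libraries of each group were on plate 1. With the plate 2 valve libraries alone, 146 genes had a smaller and 22 a larger fold change in the valve in edgeR, and 32 genes in all passed with the rabbit as a block. Of the 36 genes called in the valve, 22 passed in edgeR and 2 with the rabbit as a block (RGS6 and TNNC1), and of 62 genes of the heart muscle lists 19 and 1. For the 32 genes called lower in the valve, the median log2 fold change was -4.25 in the valve and 0.08 in the aorta in this model. Some of these genes had little room to fall in the aorta, with Control medians there of 0.337 CPM for MYBPC3, 0.224 for ANKRD1 and 0 for CKMT2. Others were higher in the aorta than in the valve, such as RYR2 with Control medians of 507 and 22.03 CPM. The aorta is therefore a limited comparison for heart muscle RNA. CKM, for example, had log2 fold changes of -4.09 in the valve and -0.25 in the aorta (difference -3.84 ± 0.92, adjusted p = 0.014 in edgeR and 0.060 with the rabbit as a block). Its Control median was 33.4 CPM in the aorta and 19.7 in the valve, whereas MB was at 0.617 in the Control aorta. Aortic CKM therefore need not follow heart muscle.

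Cartilage, bone and macrophage genes were a second group in this difference. In the cartilage list, 5 of 14 tested genes differed, in the ossification list 4 of 19 and in the macrophage list 10 of 21, all with the smaller value in the valve. With the rabbit as a block in limma-voom, 1, 0 and 1 of them passed (MATN1 and CSF1R, named here because they passed), and the calls of COL11A2, RUNX2, ALPL, CD68 and CD14 given next were lost (adjusted p of 0.084 to 0.16). With the plate 2 valve libraries alone, 3 of 14 cartilage, 0 of 20 ossification and 9 of 21 macrophage genes passed in edgeR, where CD14 passed (adjusted p = 0.011) and COL11A2, RUNX2, ALPL and CD68 did not (0.078 to 0.20). COL11A2, a cartilage collagen, had a log2 fold change of -0.90 in the valve and 5.85 in the aorta (difference -6.75 ± 1.37, adjusted p = 0.0044, edgeR). Its aortic levels had medians of 0.273 CPM in Control and 7.78 in Lard, whereas in the valve it was present in Control already, at a median of 34.7 CPM, with 15.2 in Lard. RUNX2 had 0.02 in the valve and 3.87 in the aorta (difference -3.85 ± 1.003, adjusted p = 0.026), and ALPL -0.83 and 3.39 (difference -4.22 ± 1.03, adjusted p = 0.017). CD68 had -0.36 and 1.42 (difference -1.78 ± 0.45, adjusted p = 0.021) and CD14 -0.47 and 1.78 (difference -2.25 ± 0.48, adjusted p = 0.0063). SPP1 had 1.35 in the valve and 3.17 in the aorta, and the difference did not pass (-1.82 ± 0.68, adjusted p = 0.13). The valve interstitial list had 1 passing gene, VIM, with 0.33 in the valve and -0.41 in the aorta (difference 0.74 ± 0.18, adjusted p = 0.014, 0.046 with the rabbit as a block and 0.053 with the plate 2 valve libraries alone).

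**Figure D5:**
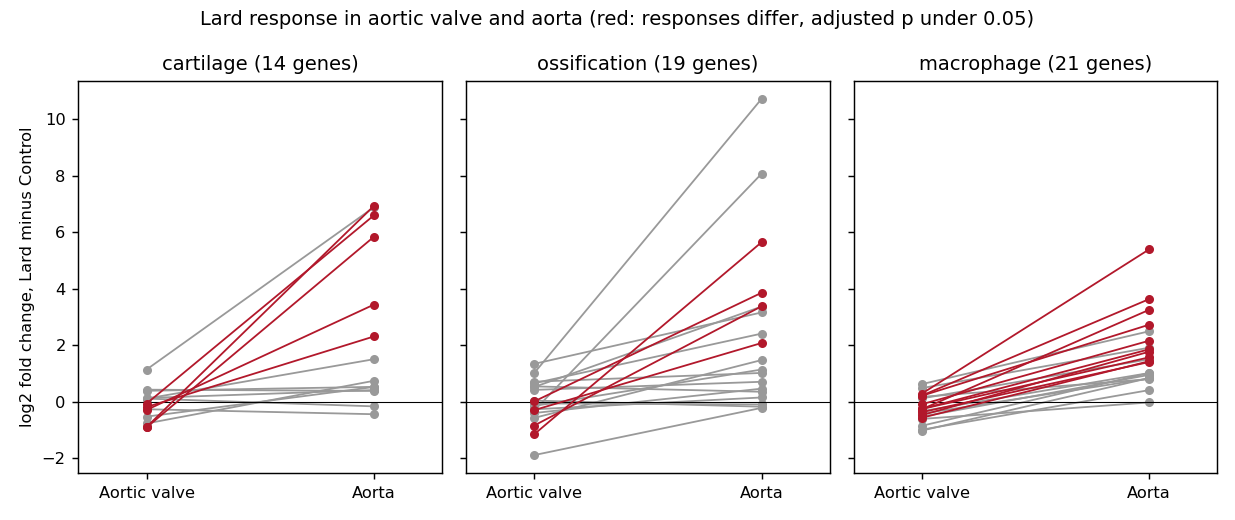
Log2 fold change between Lard and Control in the aortic valve (left of each panel) and the aorta (right) for the tested genes of the cartilage, ossification and macrophage lists, joined by gene and red where the responses differed (edgeR interaction without the rabbit as a block, adjusted p under 0.05). Red lines rise from lower values in the valve to higher values in the aorta, and 5 of 14, 4 of 19 and 10 of 21 genes are red.

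In the aortic valve, the Cholesterol and Cholesterol+IR groups were compared with the same Control libraries, so their values stand beside those of Lard and are not independent of them. MB had log2 fold changes of -4.75 in Lard, -5.29 in Cholesterol and -5.18 in Cholesterol+IR, CKM of -4.09, -4.98 and -4.43, and ACTN2 of -3.55, -3.43 and -2.94. PTP4A3 had -4.35, -3.90 and -3.96. ANKRD1 had -5.66, -3.06 and -0.15, and LPL -2.05, 1.08 and 3.65. SPP1 had 1.35, 4.15 and 4.17, and TNFSF8 had fitted values of 5.66, 5.72 and 5.57 against its 1 read in Control. In the aorta TNFSF8 was at 0 CPM in all 7 Control libraries and at a median of 1.41 in Lard, and its response did not pass the test of a difference from the valve (adjusted p = 0.56, edgeR). In the mitral valve it went the other way, with medians of 0.252 CPM in Control (0 to 1.78) and 0.098 in Lard (0.053 to 0.367).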

How the data were processed

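Libraries were made from 10 ng of RNA with a stranded total RNA kit. The count tables were divided into plates 1 and 2, and what the plates were is not given in the sources used here. Per the study's methods, the authors mapped reads to OryCun2.0 with nf-core/rnaseq and deposited raw read counts per gene of the Ensembl annotation. The 29587 genes included 14871 without a symbol, which keep their identifiers, and no per-sample column was left unused (0). Libraries were assigned to groups from their titles. No 2 libraries of a group held identical counts.

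The fit used edgeR 4.0.16 under R 4.3.3 (filterByExpr, TMM, robust quasi-likelihood fit, two-sided test) on the 27 aortic valve libraries, with 1 mean per treatment. A gene counted as called when its fold change exceeded 1.5 and its p, adjusted after Benjamini and Hochberg, fell below 0.05. CPM use TMM-scaled library sizes, and log2 CPM a prior count of 2. The heart muscle covariate was centred, and MB, CKM and ACTN2 were left out of its calls. Differences between tissues were tested as interactions. Correlations were split at 0.8 and 0.5. Alternatives used DESeq2 1.42.0, limma 3.58.1, other scaling, filters and samples, the plate, and leaving out each library. Those chosen after the data were seen were DESeq2 on 14 libraries, DESeq2 with the covariate, the within-treatment covariate, the aorta comparison with plate 2 valve libraries, the fit without Control L150, L166 and L261 together and the within-diet correlation. Scripts were tested on simulated data.

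Named genes were each called gene with a symbol, in each of 32 lists the called genes with the smallest p (3 at most) or else the 1 gene with the smallest p, and a fixed set of muscle, valve, bone, lipid and macrophage genes. The comparison, the lists and these rules were chosen with earlier results of these data known. Within a tissue, each library came from a separate rabbit, and the tissues shared rabbits. Counting intervals cover counting error only. Results for a few of the named genes are not reported here.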

Additional observations from a re-analysis of the deposited data

Results flagged for a closer look

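A library stood apart from the other 6 of its group, by Dixon's criterion at 95%, in 12 of the 190 groups of values examined, where chance alone flags about 9.5, and 11 of the 12 are given here. Lard L232 had 50577676 counts. Among log2 CPM, the lowest value of its group was RGS6 in Lard L152 (-3.34), CXCL8 (-3.34) and TBX5 (-2.50) in Control L150, and CDH5 (2.80) and PECAM1 (4.34) in Control L198. The highest was TNFSF8 in Control L261 (-2.72), EPB42 in Lard L190 (2.43), IBSP in Control L182 (-1.37), MZB1 in Lard L173 (-1.80) and MYH11 in Lard L543 (10.34). A log2 CPM of -3.34 stands for 0 reads, and TNFSF8 in Control L261 had 1 read against 0 in the other Control libraries. The number given for chance need not hold for values at this floor.

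The response to Lard differed between aortic valve and aorta, by the interaction test in edgeR, in 35 of the named genes, of which 3 passed with the rabbit as a block in limma-voom (RGS6, TNNC1 and VIM). The differences, valve minus aorta in log2 units, were -4.90 for PTP4A3, -2.91 for PYGM, -4.30 for MLIP, -6.97 for NRAP, -3.40 for HSPB7, -3.77 for TNNC1, -6.72 for ANKRD1, -3.70 for LDB3, -5.21 for ACTA1, -4.12 for RGS6, -3.03 for RYR2, -3.84 for CKM, -4.23 for XIRP1, -3.65 for ACTN2, -2.28 for ENO3, -4.50 for MYL3, -4.69 for MYOM2 and -4.16 for PGAM2 among called genes with a symbol. The called genes without a symbol had differences of -4.44, -4.90, -4.91 and -4.51. Among genes not called in the valve they were -6.75 for COL11A2, -2.28 for ROBO4, -2.25 for CD14, 0.74 for VIM, -4.22 for ALPL, -4.51 for CASQ2, -1.78 for CD68, -2.80 for CD36, -3.85 for RUNX2, -1.34 for PLK1, -5.27 for MYL2, -1.67 for HMOX1 and -3.05 for LPL.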

How the results depend on the processing

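The number of genes called in the aortic valve (36, with 4 higher and 32 lower) depended on the tool and on the libraries fitted, and so did the balance of higher and lower calls. DESeq2 called 118 (22 higher, 96 lower), and 101 (12 and 89) on the Control and Lard libraries alone, where edgeR called 0 (0 and 0). A model of all tissues called 126 genes higher and 106 lower, and the fit without Lard L269 called 1 higher and 0 lower. With the plate as a term 2 genes were called higher and 28 lower, each plate alone gave 0 (0 higher, 0 lower), and a test against a fold of 1.5 gave 1 (0 higher, 1 lower). Leaving out 1 library gave 0 to 50 genes in all, 0 to 4 higher and 0 to 46 lower, with 0 genes without Control L240 or Lard L152, L173 or L232, 1 without Lard L190 or L269, 2 without Control L277, 20 without Lard L248 and 13 without Lard L543. Without Control L150, L166 and L261 together, 2 genes were called higher and 58 lower. On plate 1 alone the genes called lower had log2 fold changes of -7.42 to -1.16 (median -2.98) and on plate 2 of -6.51 to -1.87 (median -4.42), against a median of -4.25 in all libraries. The cause of these changes was not tested. Of the genes called lower, 7 had a correlation of 0.8 or more with the heart muscle level in the Cholesterol and Cholesterol+IR libraries, 31 in the mitral valve and 28 within Control and Lard, and 6, 0 and 0 were under 0.5. Without MB, CKM and ACTN2, which define the level, 5, 28 and 25 genes reached 0.8. Against the aorta, 352 genes had a smaller and 24 a larger fold change in the valve. These were 11 and 5 with the rabbit as a replicate block in limma-voom, 202 and 10 without the filter on low counts, 146 and 22 with the plate 2 valve libraries alone, and 26 and 6 with these and the rabbit block. When 1 library was left out, 240 (without Lard L152) to 480 (without Control L277) were smaller and 6 (without Lard L248) to 117 (without Control L277) larger. Against the mitral valve, 0 genes differed, 0 with the rabbit block, and 0 to 1 when 1 library was left out (1 without Lard L173). With the heart muscle covariate 0 genes were called in each alternative run. This leaves aside the fit with the level centred within each treatment, whose calls are given in the Results. No called gene changed the sign of its fold change in the alternatives to the fit without the covariate. With the covariate 20 of the 32 genes called lower did, among them MB and ACTN2, which are part of that covariate. Genes of a few reads, such as TNFSF8, are also limited by depth.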
